A study of Schizosaccharomyces pombe with 6 samples.

Results

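The outer flanks of centromere 3 are the stretches of fission yeast chromosome III between 25 and 150 kb from each edge of the centromere. They were taken as the array probes whose names place them at those distances, 416 on the left and 415 on the right, which is 831 of the 41551 non-control probes. The edges lie close to the ends of the gap between protein-coding genes that holds the centromere, so the flanks are gene-bearing chromatin outside that gap. The study mapped chromatin in Schizosaccharomyces pombe by chromatin immunoprecipitation (ChIP) on 6 two-colour tiling arrays, with probes evenly spaced along the chromosomes. H3K9me2, the dimethylated form of lysine 9 on histone H3, was mapped in wild-type cells (1 array) and in pds5D cells, which lack the gene pds5 (1 array). Pds5 fused to green fluorescent protein (Pds5-GFP) was mapped with a GFP antibody on 2 wild-type arrays, 1 array of swi6D cells and 1 array of clr4D cells, which lack swi6 and clr4. All cultures were growing exponentially in rich medium at 30 °C before fixation in 3% paraformaldehyde. The cells for Pds5-GFP were also held at 18 °C for 2 h beforehand and fixed with the cross-linker DMA, so the H3K9me2 and Pds5-GFP arrays do not describe the same growth condition. The labels give no more of the genotypes, and they do not say that the 2 wild-type Pds5-GFP arrays hold different cultures, so the spread between them may be technical.

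In fission yeast, heterochromatin is nucleated at the pericentromeric repeats, where RNA interference recruits the methyltransferase Clr4. Clr4 methylates H3K9 and also binds the mark through its chromodomain, and this is how the mark can spread into neighbouring chromatin. Swi6, an HP1 protein, binds H3K9me2 and recruits cohesin, which encircles the sister chromatids and keeps them paired until anaphase. Pds5 associates with cohesin and regulates how it is loaded, acetylated and released. Along the arms cohesin is known to collect between convergent genes, and tRNA genes are known as sites where condensin and cohesin gather and as barriers to heterochromatin.

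The flanks hold 4 tRNA genes, shown here because one of them, SPCTRNAASN.05, lies in the bin with the most Pds5-GFP of either flank, beside opy1, which holds the highest probe of the left flank. Each is printed 5′ to 3′ from the RefSeq assembly ASM294v3, with the first match to the letters GTTCNANNC in capitals. Those letters stand for the B box, the inner promoter element that the transcription factor TFIIIC binds. On the strand of the gene they occur in 4 of these 4 genes and in 156 of the 171 nuclear tRNA genes of the assembly, or 91.2%. On the opposite strand they occur in 0 of the 4 and in 12 of the 171. Overlap with other motifs was not searched. The plus-strand genes SPCTRNAARG.09 (tRNA-Arg, chrIII:925852-925924) and SPCTRNAASN.05 (tRNA-Asn, chrIII:947262-947335) lie in the left flank. In the right flank lie SPCTRNAVAL.11 (tRNA-Val, minus strand, chrIII:1206747-1206819) and SPCTRNASER.10 (tRNA-Ser, plus strand, chrIII:1253193-1253287).
SPCTRNAARG.09: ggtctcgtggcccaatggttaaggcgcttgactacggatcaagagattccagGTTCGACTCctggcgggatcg
SPCTRNAASN.05: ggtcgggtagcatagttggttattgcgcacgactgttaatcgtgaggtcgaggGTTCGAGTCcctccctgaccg
SPCTRNAVAL.11: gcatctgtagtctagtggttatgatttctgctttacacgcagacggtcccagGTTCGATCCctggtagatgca
SPCTRNASER.10: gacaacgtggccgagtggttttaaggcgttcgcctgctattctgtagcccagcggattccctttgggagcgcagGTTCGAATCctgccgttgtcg

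All levels are log2 ratios of ChIP over whole-cell extract, minus the median of the array, so 0 is the level of the typical probe. Arm probes of all chromosomes had medians between -0.09 and -0.01 on the 6 arrays. In the extract channel the coding part of pds5 lay at -6.99 on the pds5D array, that of swi6 at -6.85 on the swi6D array and that of clr4 at -6.55 on the clr4D array, against -1.13 to 0.39 where these genes are intact. Between 98.4% and 99.98% of the spots of an array stood well above background in both channels. Within a 5 kb bin of the flanks, single probes scattered around their mean with an SD whose median over bins was 0.30 to 0.39 on the H3K9me2 arrays and 0.22 to 0.29 on the Pds5-GFP arrays.

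The first question was how far the mark reaches from centromere 3, and how that reach differs without Pds5. In wild type H3K9me2 fell with distance on both sides, further out on the right than on the left. The median of the 16 probes between 25 and 30 kb on the left was 2.10, and the median between 145 and 150 kb was 0.36. On the right the corresponding medians were 2.18 and 0.22, after a highest bin of 2.69 between 35 and 40 kb. A straight line over the 25 bins of a side fell by 0.13 per 10 kb on the left and by 0.19 per 10 kb on the right, with Spearman correlations between level and distance of -0.89 and -0.98. Neighbouring bins share their array and their slope, so these correlations describe the profiles and carry no p-value. The first bin under a ratio of 1 began at 60 kb on the left and at 90 kb on the right. With the ChIP signal alone the order of the sides was turned, with 70 kb on the left and 45 kb on the right.

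In pds5D cells the mark also fell with distance, but from a level that stayed higher for longer. The medians between 25 and 30 kb were 2.07 on the left and 1.80 on the right. Between 145 and 150 kb they were 0.86 and 0.41. The line fell by 0.12 per 10 kb on the left and by 0.13 per 10 kb on the right, with Spearman correlations of -0.83 and -0.84. The first bin under 1 began at 95 kb on the left and at 105 kb on the right, although the next bins on the left rose above 1 again, to 1.49 between 100 and 105 kb. On the left, 8 of 25 bins reached 1 in wild type and 19 did in pds5D. On the right these counts were 13 and 20, against 7.98% and 12.7% of all 2494 bins of the chromosomes in the respective array. The left bin at 100 to 105 kb holds 8 probes with a name suffix shared with other probes, whose meaning the sources used here do not give, and without them it stood at 1.05 in wild type and 1.27 in pds5D. The distance of the first bin under 1 depended on the processing. On the left it was 65 kb in both arrays with loess and 70 kb in both with equal deviation, and on the right it was 45 kb in both with the ChIP signal alone, so under these settings the arrays did not differ in it.

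**Figure D1:**
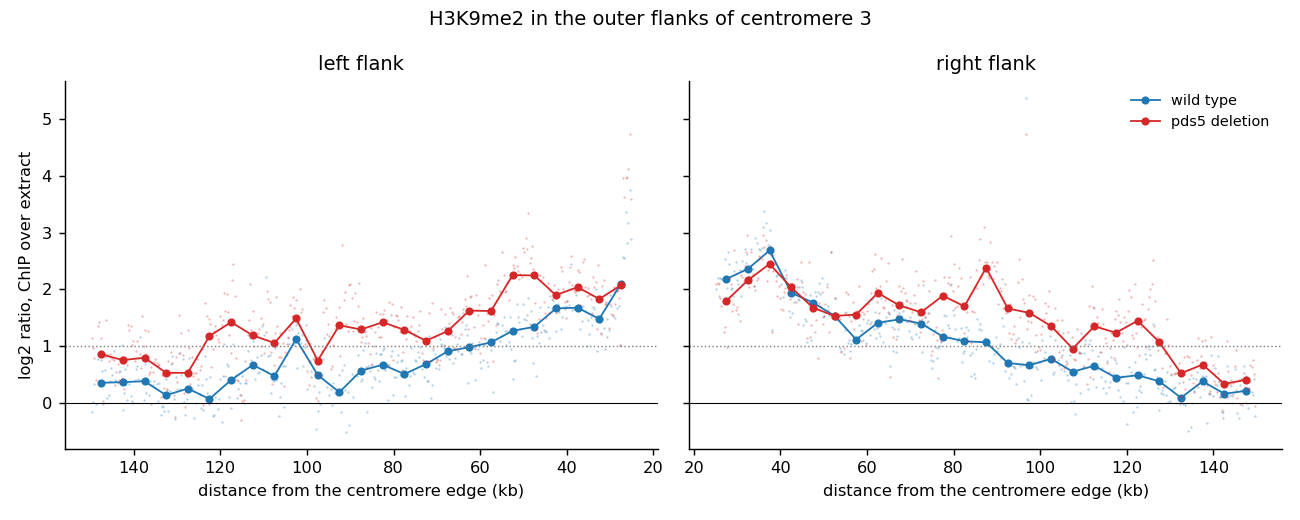
H3K9me2 log2 ratio against distance from the centromere edge in kb, for the left flank (axis reversed) and the right flank. Small points are probes, joined circles are medians of 5 kb bins in wild type (blue) and pds5D (red), and the dotted line marks a ratio of 1. The red bins lie above the blue ones over most of both flanks, while between 25 and 40 kb on the right the order is turned, with 2.69 in wild type and 2.45 in pds5D in the highest bin.

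By zones of 25 kb, the difference between the arrays was largest in the middle of the flanks. Taking both sides together, the median of the innermost zone (25 to 50 kb) was 1.86 in wild type and 2.03 in pds5D, a difference of 0.16. From 50 to 75 kb the medians were 1.17 and 1.59. From 75 to 100 kb they were 0.71 and 1.52, the largest difference of the 5 zones at 0.81. From 100 to 125 kb they were 0.54 and 1.24, and from 125 to 150 kb 0.27 and 0.66. The innermost zone differed between the sides. On the left pds5D was higher (2.01 against 1.63), and on the right it was lower (2.04 against 2.18). The sign on the left depended on the processing at some genes of this zone. Over 8 alternative settings the difference ranged from -0.22 to 0.35 at erm1 and from 0.33 to 0.76 at psy1. On the right it ranged from -0.90 to -0.42 at nte1. The 25 kb next to the centromere were lower in pds5D on both sides, with 2.65 against 2.81 on the left and 2.22 against 2.57 on the right.

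The difference lay in the immunoprecipitated DNA over most zones. Between 75 and 100 kb the ChIP channel alone, centred on its array median, stood at 0.76 (wild type) and 1.54 (pds5D), while the extract channel stood at 0.18 and 0.11. Between 100 and 125 kb the ChIP channel went from 0.54 to 1.14 and the extract from 0.07 to 0.08. From 125 to 150 kb on the left the extract also differed, with -0.32 in wild type and 0.13 in pds5D, beside 0.22 and 0.74 in the ChIP channel. The part of such extract differences in the ratios was not tested.

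A probe was called enriched when the running median of 3 neighbouring probes reached a ratio of 1. In wild type 326 of the 831 flank probes (39.2%) were enriched, against 8.47% of all chromosome probes. In pds5D 606 were (72.9%), against 13.2% of all chromosome probes. Of these, 323 were enriched in both arrays, 283 in pds5D alone and 3 in wild type alone. On the left the count went from 133 to 293, and on the right from 193 to 313. Between 75 and 100 kb on the left it went from 0 of 84 probes to 66. Between 125 and 150 kb, over both sides, it went from 0 of 166 probes to 24.

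Of the 25 bins on the left, 13 were higher in pds5D by 0.5 or more, and of the 25 on the right 11 were, against 9.26% of all bins. No flank bin was lower by that much, against 2.29% of all bins. A difference of 1 or more was reached by 3 bins on the left and 1 on the right, against 2.25% of all bins. On the left these were the bins at 90 to 95 kb (0.19 and 1.37), 115 to 120 kb (0.41 and 1.42) and 120 to 125 kb (0.07 and 1.18). On the right it was the bin at 85 to 90 kb, with 1.07 in wild type and 2.38 in pds5D. The median difference over bins was 0.50 on the left and 0.43 on the right, against -0.02 over all bins. Each genotype has a single array, both on the same slide, so no test of the genotypes can be made. With the log ratios of the arrays scaled to equal deviation the median differences were 0.31 and 0.18.

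The same distances around the other centromeres gave a comparison within the same arrays. The outer flanks of centromere 1 (834 probes) had medians of 0.68 in wild type and 1.13 in pds5D, and those of centromere 2 (834 probes) had 0.89 and 1.36, beside 0.85 and 1.45 at centromere 3. Enriched probes went from 30.7% to 55.5% at centromere 1 and from 39.7% to 69.9% at centromere 2. All 3 therefore had more of the mark in pds5D over these distances. From 75 to 100 kb the difference was 0.81 at centromere 3, 0.68 at centromere 1 and 0.76 at centromere 2, and its largest value on 1 side was 1.13, on the right of centromere 2. The zones farther out differed more between centromeres. From 100 to 125 kb the difference was 0.70 at centromere 3, 0.08 at centromere 1 and 0.26 at centromere 2, and from 125 to 150 kb it was 0.39, 0.18 and 0.38. Whether the centromeres differ in this was not tested, because each genotype has 1 array.

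**Figure D2:**
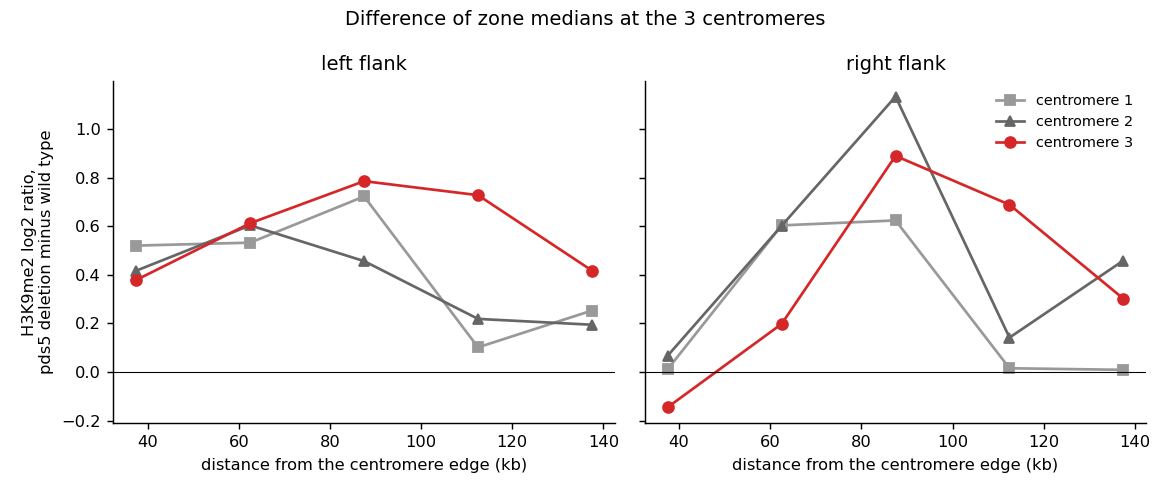
Difference of zone medians of the H3K9me2 log2 ratio, pds5D minus wild type, against the middle of each 25 kb zone in kb from the centromere edge, at the 3 centromeres. Each point is 1 zone on 1 side. At centromere 3 (red circles) the difference peaks at 0.79 on the left and 0.89 on the right between 75 and 100 kb and is still 0.73 and 0.69 between 100 and 125 kb, where centromere 1 stands at 0.10 and 0.02 and centromere 2 at 0.22 and 0.14. The highest point of the plot is the right side of centromere 2 between 75 and 100 kb, at 1.13.

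A single probe at 96.6 kb on the right, between myo2 and rgf3, had the highest H3K9me2 of all flank probes, at 5.37 in wild type and 4.73 in pds5D, beside a bin median of 0.67 and 1.59. Its Pds5-GFP values were 1.55 and 2.00 in wild type, 1.02 in swi6D and 0.44 in clr4D. On these arrays its extract channel also differed, with 0.285 and 0.93 in wild type and 1.25 in both mutants. Its ChIP channel stood at 1.83 and 2.90 in wild type, 2.25 in swi6D and 1.67 in clr4D. The part of the extract in these ratios was not tested.

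Annotation was laid on the probes to ask which genes the mark covers. At least 3 probes fell inside each of 84 protein-coding genes, 43 on the left and 41 on the right, and the value of a gene is the mean of its probes. Genes that overlap, such as sws2 and vid21, share probes and were each counted, so the genes are not all separate measurements. In wild type 33 of the 84 had a mean of 1 or more, against 6.58% of all 4573 measured genes, and in pds5D 61 had, against 10.9%. The difference was above 0 in 43 of 43 genes on the left and in 34 of 41 on the right, with medians of 0.49 and 0.43. These counts depended on the processing. Over both sides the difference was above 0 in 77 of 84 genes as reported, in 72 with loess and in 65 with equal deviation. Over all genes it was above 0 in 48.4%, with a median of -0.01. A gene was counted as higher when it differed by 1 or more and reached 1 on at least 1 array. By that rule 10 of the 84 were higher in pds5D, against 1.99% of all genes, and 0 were lower, against 0.175%.

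Close to the left edge, erm1 led in wild type with 1.86, followed by SPCC825.01 with 1.74 and gbs1 with 1.66. Their pds5D values were 2.10, 2.06 and 2.04. The N-terminal acetyltransferase gene naa40 stood at 1.49 and 1.93. psy1, which encodes a syntaxin of the plasma membrane, had 1.44 in wild type and 2.18 in pds5D. The space between erm1 and rpa12, at the innermost border of the flank, had more of the mark than any gene of the left flank, with a mean of 2.91 in wild type and 3.76 in pds5D over its 8 probes inside the flank.

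The 2 genes of the left flank with the highest pds5D values lay side by side near 50 kb. SPCC895.08C went from 1.56 to 2.77. Its neighbour alp14, which encodes a microtubule polymerase of the XMAP215 family, went from 1.18 to 2.38. The next measured gene outwards, elp2, a subunit of the Elongator complex that modifies tRNAs, went from 1.24 to 2.09. Of the genes farther out, chosen here for their known roles after their values were seen, for3, a formin that nucleates actin cables, went from 0.83 to 1.48. mad3, a spindle checkpoint protein, went from 0.91 to 1.40.

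A second group of genes on the left had low levels in wild type, from 0.04 to 0.50, and levels of 1.24 to 1.77 in pds5D. SPCC1795.12C, at 91 kb, went from 0.15 to 1.61, the largest difference among the 84 genes at 1.46. Its convergent neighbour sum3, which encodes a DEAD-box helicase of translation initiation, the homologue of budding yeast Ded1, went from 0.38 to 1.77. Near 120 kb pog1 went from 0.04 to 1.24 and its convergent neighbour opy1 from 0.50 to 1.65. The genes on either side of that pair stood lower in pds5D. ade10, an enzyme of purine synthesis, went from 0.32 to 0.48, and tpi1, the triosephosphate isomerase of glycolysis, from 0.34 to 0.89. From 125 kb outwards none of the 10 measured genes of the left flank reached 1 in pds5D. The lowest of them was emp24 at 0.39, and the highest was ada2, just under 1.

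On the right the innermost genes carried the highest levels of either flank in wild type, and 6 of the 8 between 25 and 50 kb were lower in pds5D. tum1 stood at 3.09 in wild type and 2.68 in pds5D. got1, a Golgi transport protein, stood at 2.71 and 2.56, mam301 at 2.47 and 2.44, and rhp26, the homologue of the transcription-coupled repair factor CSB, at 2.32 and 2.08. nte1 had the largest negative difference, from 2.21 to 1.77. ski2, an RNA helicase of the cytoplasmic exosome pathway, went from 1.71 to 1.52. The 2 that were higher were tho1, from 1.88 to 2.04, and cwf5, from 1.77 to 2.12. On the values as reported, 7 genes of the flanks were below their wild-type value, by between 0.02 and 0.44. All 7 lay between 29.0 and 50.4 kb from the right edge.

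Beyond 75 kb the genes of the right flank differed in the other direction. cig1, a B-type cyclin, went from 1.28 to 2.47. isa1, a mitochondrial iron-sulfur protein, went from 0.93 to 2.35. Past 120 kb sti1, a co-chaperone of Hsp70 and Hsp90, went from 0.27 to 1.47, and SPCC23B6.02C from 0.86 to 1.89. The very long gene tel1, the ATM checkpoint kinase, went from 0.15 to 0.66 over 30 probes, and the outermost genes rpm1, pxd1 and trp1322 stood at 0.27, 0.43 and 0.36 in pds5D.

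**Figure D3:**
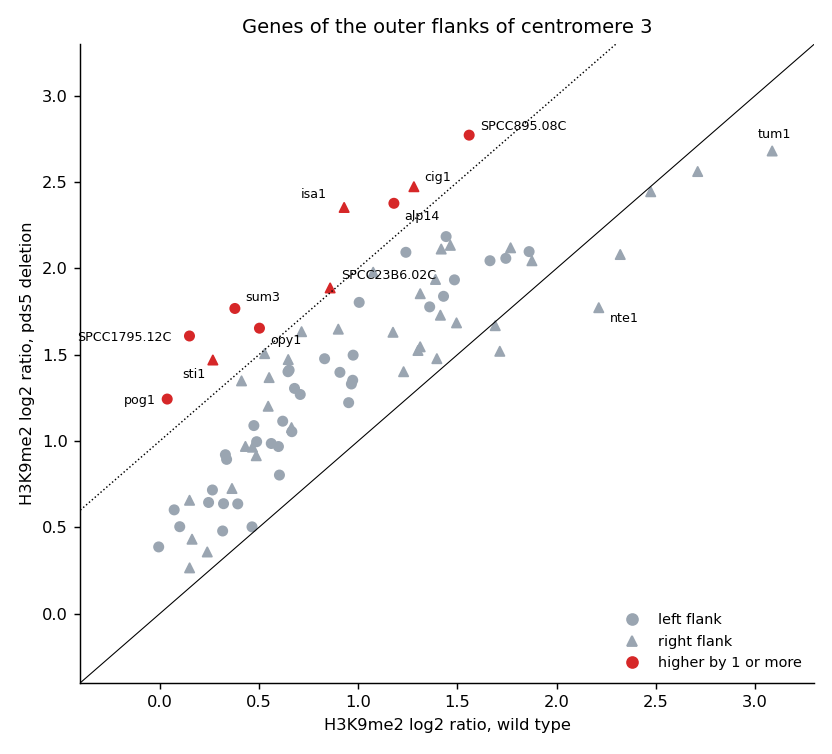
H3K9me2 log2 ratio of each of the 84 measured genes of the flanks in wild type (horizontal axis) and pds5D (vertical axis), with circles for the left flank and triangles for the right. The solid line marks equal values and the dotted line a difference of 1. The 10 red genes, from pog1 (0.04 and 1.24) to SPCC895.08C (1.56 and 2.77), lie on or above the dotted line, and the right-flank genes with the highest wild-type values, such as tum1 (3.09 and 2.68), lie below the solid line.

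In the 10 genes that were higher, the ratio differed by 1.03 to 1.46 and the ChIP channel alone by 0.69 to 1.43. The extract differed by -0.51 to 0.23, and the lowest value was that of sti1, whose ChIP signal alone differed by 0.69. With log ratios scaled to equal deviation 5 of the 84 genes met the rule as higher, against 1.2% of all genes, and 1 as lower, against 1.18%.

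Genes whose products act with cohesin were looked for as a list. Of 17 genes for cohesin and the related SMC5/6 complex, 3 lay in the flanks, all on the right. rec11, the meiotic cohesin subunit that replaces Psc3 on the arms, went from 0.90 to 1.65. nse1 and nse3, subunits of SMC5/6, went from 1.40 to 1.48 and from 1.08 to 1.98. Of these 3, none differed by 1 or more. None of 11 genes targeted by the RNA elimination factor Mmi1 and none of 16 genes for heterochromatin factors lay in the flanks.

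Pds5-GFP did not follow the distance from the centromere in the way the mark did. Its bin medians in wild type, as the mean of both arrays, ranged from -0.57 to 1.82 on the left and from -0.80 to 1.49 on the right. The Spearman correlation with distance was -0.26 on the left and -0.34 on the right, and a line fell by 0.03 and by 0.05 per 10 kb. In swi6D the correlations were -0.19 and -0.11, and in clr4D -0.06 and -0.13. The highest levels lay at separate places along both flanks, and the wild-type pair gave much the same profile, with a correlation of 0.98 (Pearson) over the 50 bins, a median gap between the arrays of 0.07 per bin and a largest gap of 0.30. A wild-type mean of 1 was reached by 3 of the 50 bins, against 6.01% of all bins, so the flanks were at the background in this.

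**Figure D4:**
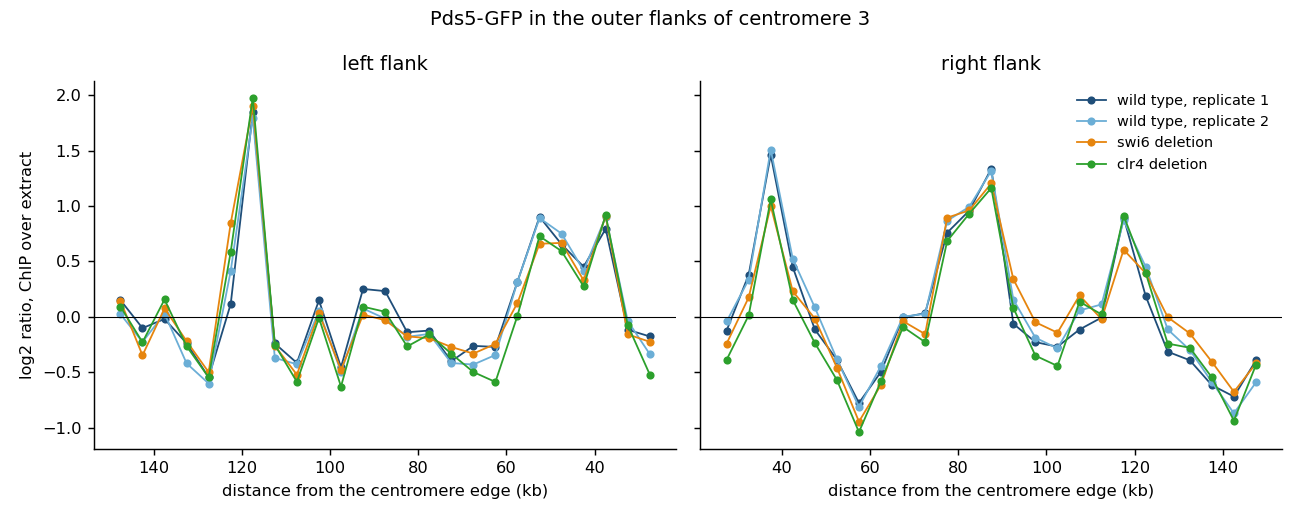
Pds5-GFP log2 ratio in 5 kb bins against distance from the centromere edge in kb, for the left flank (axis reversed) and the right flank, in the 2 wild-type arrays (dark and light blue), swi6D (orange) and clr4D (green). The same peaks appear on all 4 arrays, the highest at 115 to 120 kb on the left (1.80 to 1.98), while at 35 to 40 kb on the right the wild-type arrays stand at 1.46 and 1.51 and both mutants near 1.

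The highest bin of either flank was at 115 to 120 kb on the left. Its median was 1.85 and 1.80 in the wild-type arrays, 1.90 in swi6D and 1.98 in clr4D, and 11 of its 16 probes reached 1 on all 4 arrays. It covers opy1 and the space between opy1 and ade10, where 5 probes averaged 1.89 ± 0.04 (SD, n = 2) in wild type and where the tRNA gene SPCTRNAASN.05 lies. opy1 had the highest gene value of the flanks, at 1.98 and 2.08 in wild type, 2.18 in swi6D and 2.25 in clr4D. The 3 probes at or within 450 bp of SPCTRNAASN.05 averaged 1.97 and 1.91 in wild type, 1.97 in swi6D and 2.04 in clr4D. H3K9me2 at the same probes was 0.62 in wild type and 2.17 in pds5D.

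The other tRNA genes did not all share that signal. SPCTRNAARG.09 had Pds5-GFP values of 0.72 and 0.64 in wild type, 0.40 in swi6D and 0.86 in clr4D. Beside it a 5S rRNA gene, SPRRNA.26, had 0.58 and 0.51, 0.33 and 0.66. SPCTRNAARG.09 and SPRRNA.26 share most of their probes, so their values are not separate measurements. SPCTRNAVAL.11 stood at -0.21 and -0.16 in wild type and at -0.17 and -0.20 in the mutants. SPCTRNASER.10 stood at -0.12 on both wild-type arrays and at -0.06 and -0.03 in the mutants. In H3K9me2 these genes went from 0.59 to 0.96 (SPCTRNAARG.09), from 1.56 to 2.07 (SPCTRNAVAL.11) and from 0.80 to 0.98 (SPCTRNASER.10). All 4 carry the B-box letters, so the letters did not separate the gene with high Pds5-GFP from the others.

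On the right the bin at 85 to 90 kb had medians of 1.34 and 1.32 in wild type, 1.20 in swi6D and 1.16 in clr4D. It holds cig1, whose values were 1.50 on both wild-type arrays, 1.39 in swi6D and 1.27 in clr4D. In the space between cig1 and gep4 the wild-type mean was 1.71 ± 0.04 (SD, n = 2). The bin at 35 to 40 kb had medians of 1.46 and 1.51 in wild type, 1.0001 in swi6D and 1.06 in clr4D. rei1, near 80 kb, stood at 1.04 and 1.26 in wild type, 1.22 in swi6D and 1.25 in clr4D. The lowest genes were pxd1, rpm1 and SPCC550.08, with wild-type means of -1.002, -0.82 and -0.80.

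Pds5-GFP differed by the orientation of neighbouring genes. The 46 flank probes between convergent genes averaged 0.40 ± 0.02 (SD, n = 2 wild-type arrays), 0.37 in swi6D and 0.41 in clr4D. The 126 probes between divergent genes averaged -0.17 ± 0.04, -0.19 and -0.28, and the 142 between genes in tandem 0.07 ± 0.01 in wild type. The order was the same along the arms, where the wild-type means were 0.31, -0.18 and 0.02. Of the 22 convergent spaces of the flanks 9 reached a wild-type Pds5-GFP mean of 0.5, or 40.9%, against 35% of all convergent spaces, so the flanks were near the background in this. The 5 spaces above 1 lay between pog1 and opy1, got1 and tum1, alp14 and SPCC895.08C, bye1 and sti1, and vgl1 and rei1. Each of these 5 was measured by 1 or 2 probes.

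In the flanks, places with more Pds5-GFP in wild type were also places with a larger H3K9me2 difference, more clearly on the left than on the right. Bins were split by their wild-type Pds5-GFP level. In the 9 bins at 0.5 or more, the H3K9me2 medians were 1.17 (wild type) and 2.04 (pds5D), with a median difference of 0.79, and 7 of the 9 were higher by 0.5 or more. In the 14 bins from 0 to 0.5 the median difference was 0.53, and in the 27 bins under 0 it was 0.39. On the left the correlation between the difference and wild-type Pds5-GFP was 0.50 (Pearson) and 0.45 (Spearman) over 25 bins, and on the right 0.18 and 0.22 over 25 bins. Over the 2175 bins of the arms these were 0.10 and 0.06. Bins share their arrays and neighbours, so these values are descriptions without a p-value. The GC content of a bin correlated with the difference at 0.04 (Pearson) over the 50 flank bins, and with wild-type Pds5-GFP on the left at 0.34 (Pearson) and 0.64 (Spearman). Its part in the relation was not tested.

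The bin at 35 to 40 kb on the right had the most Pds5-GFP of that flank and a difference of -0.24. It was already at 2.69 in wild type. The H3K9me2 level in pds5D itself had Pearson correlations with wild-type Pds5-GFP of 0.53 on the left and 0.65 on the right, against 0.21 and 0.41 for the wild-type level. Over the arm bins these were 0.12 (pds5D) and 0.07 (wild type). Flank bins at 0.5 or more in Pds5-GFP began at a median of 47.5 kb on the left and 80 kb on the right. Bins from 0 to 0.5 began at 95 and 80 kb, and bins under 0 at 80 and 97.5 kb. H3K9me2 also fell with distance, and its part in these correlations was not tested. Among genes, 8 of the 10 that were higher in pds5D had a wild-type Pds5-GFP mean of 0.5 or more. That level was reached by 23 of all 84 flank genes and by 19.7% of all genes. The 2 that did not reach it were sum3 at 0.46 and SPCC23B6.02C at -0.08.

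The arrays of swi6D and clr4D address whether Pds5 binding depends on heterochromatin. Both were compared with the same 2 wild-type arrays, so the comparisons are not independent of each other. Over the 50 flank bins the median difference from wild type was -0.01 in swi6D and -0.10 in clr4D. Over all bins it was 0.01 in each mutant. With limma, fitted over all 2494 bins with Benjamini-Hochberg adjustment, 1 flank bin was lower in swi6D, against 2.61% of all bins, and 0 were higher, against 0% of all bins. In clr4D 0 flank bins were lower, against 2.53%, and 0 were higher, against 0%. At an unadjusted p under 0.05, 4 flank bins were lower and 3 higher in swi6D, against 8.46% and 4.49% of all bins. In clr4D 9 were lower and 0 higher, against 7.42% and 5.37%.

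The bin that passed was the one at 35 to 40 kb on the right, which holds got1, tum1 and part of rhp26. Its difference was -0.49 in swi6D (SE 0.08, limma adjusted p = 0.0488) and -0.43 in clr4D (SE 0.08, adjusted p = 0.0824). Over 9 alternative settings the swi6D adjusted p ranged from 2.688e-06 to 0.5661, and 6 of the 9 kept it under 0.05. The call ended under loess (adjusted p = 0.2671) and in the ChIP channel by itself. It also ended when probes with a shared suffix were dropped (adjusted p = 0.1073), although this bin holds 0 of them. Its difference and SE were still -0.49 and 0.08 there, and the adjustment ran over 2423 bins in place of 2494. The clr4D adjusted p ranged from 0.0022 to 0.9602, and 2 of the 9 put it under 0.05. With normexp background correction 17 flank bins were called lower in swi6D, against 23.4% of all bins, and the median over all bins was itself shifted to -0.14.

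Over genes the same fit was run on 4573 genes, where the moderated variance was a single value and the standard error 0.10 for every gene. In swi6D 3 flank genes were lower, against 3.39% of all genes, and 1 was higher, against 0.787%. In clr4D 4 were lower, against 2.36%, and 1 was higher, against 1.42%. Read against those shares, these counts by themselves do not set the flanks apart. The median gene difference in clr4D was -0.07 in the flanks (-0.01 on the left and -0.11 on the right) and 0.03 over all genes. In swi6D it was -0.03 in the flanks and 0.01 over all genes. Whether the flanks differ from the rest of the genome in these medians was not tested. Of the 5 genes that passed as lower in either mutant, 4 are neighbours on the right, and tum1 and got1, which passed in both, are the genes with the most H3K9me2 of either flank in wild type.

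The called genes were chosen by the test on the values given here, so the order of their arrays is no further evidence. tum1 stood in Pds5-GFP at 1.57 and 1.65 in wild type, 1.11 in swi6D and 1.19 in clr4D. Both mutants lay below both wild-type arrays, by 0.49 in swi6D (limma adjusted p = 1.853e-04) and by 0.42 in clr4D (adjusted p = 0.0033). got1 stood at 1.60 and 1.58 in wild type, 1.22 in swi6D and 1.09 in clr4D, and fell by 0.37 (adjusted p = 0.0156) and by 0.50 (adjusted p = 1.271e-04). rhp26 stood at 1.07 and 1.06 in wild type, 0.68 in swi6D and 0.75 in clr4D, and it passed in swi6D with a difference of -0.38 (adjusted p = 0.0107) but not in clr4D with one of -0.31 (adjusted p = 0.0725). Whether the mutants differ from each other was not tested. tho1, next to rhp26, stood at 0.49 and 0.57 in wild type, 0.23 in swi6D and 0.15 in clr4D. Its limma adjusted p was 0.0913 in swi6D (difference -0.30) and 0.0133 in clr4D (difference -0.38). Of 8 alternative settings, the swi6D call was kept in 7 for tum1, 5 for got1 and 5 for rhp26, and the clr4D call in 7 for got1, 5 for tum1 and 4 for tho1.

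On the left elp2 passed in clr4D, at 0.80 and 0.71 in wild type, 0.51 in swi6D and 0.41 in clr4D (difference -0.34, limma adjusted p = 0.0384). Its adjusted p was under 0.05 in 3 of 8 alternative settings and reached 0.7926. pog1 was higher in both mutants, and each call was kept in 6 of 8 alternative settings. Its values were 0.54 and 0.81 in wild type, 1.22 in swi6D and 1.09 in clr4D, with differences of 0.55 in swi6D and 0.42 in clr4D. The limma adjusted p was 1.530e-05 in swi6D and 0.0035 in clr4D. The wild-type pair itself was 0.28 apart there, with an SD of 0.19 that exceeds the standard error the fit gives to every gene, and the 120 to 125 kb bin that holds most of pog1 had the largest gap between the wild-type arrays of all 50 bins. Among the genes that did not pass, xlf1, an end-joining factor, came nearest in swi6D (difference -0.32, limma adjusted p = 0.0511), and dfp1, the regulatory subunit of the Hsk1 kinase, in clr4D (difference -0.32, limma adjusted p = 0.0524).

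**Figure D5:**
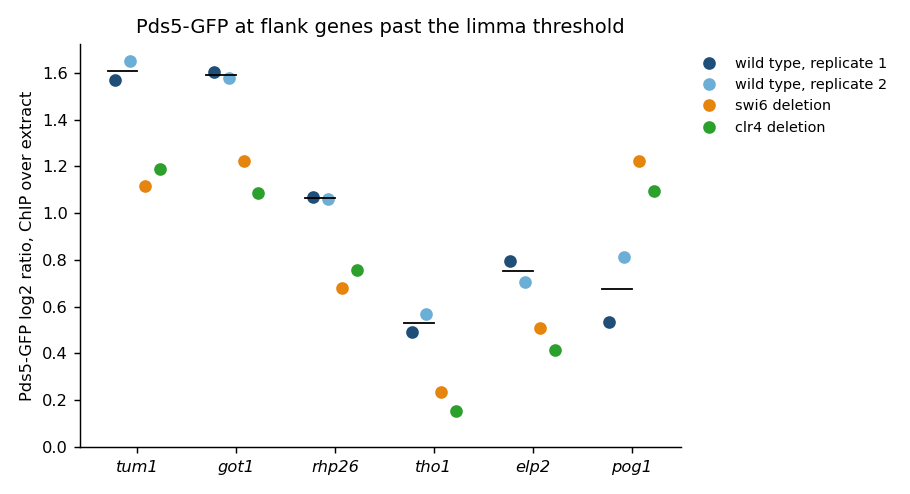
Pds5-GFP log2 ratio of the 6 flank genes that passed limma's threshold in swi6D or clr4D, in the 2 wild-type arrays (dark and light blue, with their mean as a black bar), swi6D (orange) and clr4D (green). At tum1, got1, rhp26, tho1 and elp2 both mutants lie below both wild-type arrays, and at pog1, where the wild-type arrays are at 0.54 and 0.81, both lie above. The genes were chosen by the test on these same values, so this order of the arrays is no further evidence.

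The swi6D array shares a slide with wild-type replicate 2, and against that array alone its differences were -0.53 for tum1, -0.36 for got1, -0.38 for rhp26 and 0.41 for pog1. The clr4D array is alone on its slide, so slide and genotype cannot be told apart for it. In the ChIP channel alone none of the flank genes passed in swi6D, against 0.962% of all genes lower and 0.328% higher. In clr4D 1 passed as lower and 0 as higher, against 1.14% and 0.437%. The gene that passed was alp14, which was not called on the ratios. None of the gene calls described above was kept in that channel. With normexp background correction the number of flank genes lower in swi6D was 28, against 30.6% of all genes, whose median was shifted to -0.23.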

How the data were processed

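The 6 two-colour tiling arrays carry ChIP DNA in Cy5 and whole-cell extract in Cy3, both amplified by random-primed PCR, per the labels' protocols. Per the file headers the scanner files came from Agilent Feature Extraction 12.0.3.1, and the deposited processed intensities of both channels were already background-corrected and dye-normalized by that software. The deposited log10 ratio of red over green follows from them and was used to check the direction. The deposited value table holds log2 ratios of ChIP over extract. They lay within 0.01 of the scanner ratio for 41243 to 41250 of 41251 probes, which sets their direction and scale, and their medians of -0.21 to -0.05 show that they are not centred. Spots that the deposited feature flags mark as outliers were left out, as were control spots. The outliers numbered 1306 on the wild-type H3K9me2 array, 111 on the pds5D array and 2 to 99 on the Pds5-GFP arrays. In the flanks 11 probes on each side were missing in wild-type H3K9me2, and in pds5D 1 on the left and 0 on the right.

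From these, log2 ratios of the processed signals were centred on the median of each array, with no loess or quantile step. Distance was counted from the centromere edges that the probe selection implies. Bins of 5 kb held at least 8 probes and genes at least 3. Neither labels nor headers name the genome build of the array. Therefore the genes of RefSeq assembly ASM294v3 were placed by the shift that best matched base composition to extract signal, 200 bp on the left arm (r = 0.38) and -800 bp on the right arm (r = 0.34), and no sequence was read by tile.

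Pds5-GFP was compared with limma 3.58.1 in R 4.3.3 (lmFit, eBayes, Benjamini-Hochberg adjustment over all bins or genes, threshold 0.05) on 4 arrays in 3 groups. Its 1 residual degree of freedom is the wild-type pair, and the lone mutant arrays are assumed to vary like that pair. The p-values measure only the spread between these arrays. For genes that spread was pooled over all genes, whatever their number of probes, so it is not that of the gene itself. The number of arrays limits the precision. The limma step was tried on simulated bins with independent noise of equal spread, which real neighbouring bins need not have. Genes were not simulated. The members and lists were chosen with earlier results of these data known. Genes were named by rule: the 5 highest in H3K9me2 on each side in each array, the 5 largest differences in each direction of each comparison, the 5 highest and 3 lowest in wild-type Pds5-GFP, and the genes of the lists. Other genes, bins, probes and spaces in the text were picked after their values were seen.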

Additional observations from a re-analysis of the deposited data

How the results depend on the processing

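No paired analysis was possible because the mutant arrays carry no replicate numbers to match. By slide, swi6D lies with wild-type replicate 2, and the differences from that array stand in the report without a test. The slide could not be fitted as a block, since it would leave no residual degrees of freedom, and the bin width and the summary of a bin have no counterpart for genes. For H3K9me2 the alternatives left the median difference above 0 on both sides. On the left (0.50) it was 0.41 with loess and with normexp, 0.31 with equal deviation, 0.58 with the ChIP signal alone, 0.43 with the deposited value table and 0.59 in 10 kb bins. On the right (0.43) it was 0.30 with loess, 0.33 with normexp, 0.18 with equal deviation, 0.34 with the ChIP signal alone and 0.36 in 10 kb bins. Bins higher by 0.5 numbered 7 on the left and 6 on the right with equal deviation. At a difference of 1 or more on the values as reported, they numbered 3 and 1. On the left the first bin under 1 began in wild type at 65 kb with loess, 55 kb with normexp and 70 kb with equal deviation and with the ChIP signal alone, and in pds5D at 65 kb with loess and normexp, 70 kb with equal deviation, 105 kb with the ChIP signal alone and 120 kb in 10 kb bins. On the right it began in wild type at 80 kb with normexp, 45 kb with the ChIP signal alone and 74 kb in 2 kb bins, and in pds5D at 45 kb with the ChIP signal alone and at 130 kb with centring on arm probes (added after seeing the data), with the mean of probes and in 10 kb bins. With an enrichment threshold of 0.5 wild type had 262 enriched probes on the left and 304 on the right. With a threshold of 2 the counts were 10 (wild type) and 59 (pds5D) on the left and 59 and 92 on the right. The cause of these changes was not tested.

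The median of wild-type Pds5-GFP bins on the left was -0.024 with the ChIP signal alone. Without 1 wild-type array it ranged from -0.10 to -0.04 on the left and from -0.11 to 0.027 on the right. The median difference of swi6D was -0.17 on the left and -0.14 on the right with normexp and -0.10 on the right in 10 kb bins, and without 1 wild-type array it ranged from -0.04 to 0.01 on the left and from -0.06 to -0.01 on the right. That of clr4D was -0.014 on the left with the mean of probes, -0.0046 on the left in 10 kb bins and -0.031 on the right with the ChIP signal alone, and without 1 wild-type array it ranged from -0.13 to -0.0038 on the left and from -0.14 to -0.09 on the right. Without 1 wild-type array no test is left, so those are values only. For swi6D, 0 bins were lower with loess, the ChIP signal alone or without shared suffix probes, and 17 with normexp, while 1 was higher with equal deviation and 2 with normexp. Genes lower in swi6D numbered 1 with loess and with equal deviation, 28 with normexp and 0 with the ChIP signal alone, and genes higher numbered 3 with normexp and 0 with the ChIP signal alone. For clr4D, 3 bins were lower with equal deviation, 2 with normexp and 1 with the mean of probes. Genes lower in clr4D numbered 1 with loess, normexp or the ChIP signal alone, 2 with equal deviation and 7 with centring on arm probes, and genes higher numbered 0 with equal deviation and with the ChIP signal alone. Of the other values of these summary results under the alternatives, 211 stayed within their tolerance, which was wide for counts. Among those 211, enriched probes on the left with the ChIP signal alone were 193 in wild type and 275 in pds5D, beside 133 and 293. Bins higher by 0.5 with loess numbered 9 on the left and 8 on the right, beside 13 and 11. No called difference changed sign.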
